A study of Mus musculus with 5 samples.

Results

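The circadian clock genes Arntl, Clock, Per1, Per2, Per3, Cry2, Nr1d1, Nr1d2, Dbp and Ciart were followed across the cell classes of the mouse brain in single-nucleus RNA-seq data. These are 10 of the 32285 genes in the count matrices. The list was chosen by the levels of Nr1d2 and Arntl in mural nuclei (pericytes and vascular smooth muscle cells), which differed between genotypes, so the mural genotype values below are a description, without a test. The question was whether the clock genes differed between libraries in every class at once, as they would if mice were sampled at different times of day. The time of day of collection is not given in the sources used here. The study's methods place its mice under a regular light and dark cycle.

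There were 5 libraries of sorted nuclei, each from 1 mouse, and the label names hippocampus and microglia for all of them. The R241E group held 2 mice titled Tmem119-creERT2-cGaswt/R241E, which carried 1 copy of a Cgas allele whose product binds nucleosomes poorly. The WT group held 3 mice titled Tmem119-creERT2-cGaswt/wt. All 5 therefore carried the Tmem119 driver of a tamoxifen-dependent Cre, whose activity the study places chiefly in microglia and other macrophages of the brain, and the methods give tamoxifen injections into young adult mice on consecutive days. Mural cells, fibroblasts, astrocytes, oligodendrocytes and neurons are thus classes in which the driver is not described as active. For the controls, the study's results and methods name different genotypes, and the titles were followed. Nuclei carrying NeuN, a neuronal protein, or Olig2, an oligodendrocyte-lineage protein, were sorted against, so the neurons and oligodendrocytes described here are those that passed the sort. The sexes of the mice are not given in the sources used here.

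The circadian clock is a feedback loop of transcription that runs in nearly every cell. ARNTL (also called BMAL1) pairs with CLOCK and switches on Per and Cry genes from E-box motifs, and the PER and CRY proteins then shut that pair down. A second loop runs through NR1D1 and NR1D2 (REV-ERBα and REV-ERBβ), repressors that compete with ROR activators at RORE motifs and hold Arntl down, so that Arntl transcripts peak when Nr1d1 and Nr1d2 are low. Dbp, which encodes an activator acting at D-boxes, and Ciart, which encodes a repressor of the ARNTL and CLOCK pair, are outputs of the loop that peak on the Nr1d side of the day. In the brain, the suprachiasmatic nucleus sets the phase of other regions, and astrocytes, vessels and microglia have clocks of their own.

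Some motifs of the loop occur in promoters of the listed genes. RefSeq promoters on GRCm38.p6, covering 250 bases before to 50 bases after a start site, were listed for 9 of the 10 genes and were searched on both strands for 4 motifs. These were the E-box CACGTG (in 7.15% of all 32851 promoters), its variant E-prime box CACGTT (4.68%), the D-box TTATGTAA (0.938%) and the RORE core TAGGTCA (2.61%). Of the listed genes, 6 held a match, and no match says only that these letters are not in the window. Of all 27025 genes with a promoter, 2187 held an E-box, 1470 an E-prime box, 299 a D-box and 802 a RORE. How many held any of the 4 was not counted, so the 6 genes have no background share. The matched stretches are shown because they hold the letters of the motifs named above, and a match is a description, not a measured site. They have the motif in capitals and the rest in lower case, each 5′ to 3′ on the gene's own strand.
Arntl, RORE past the start site of the second of 2 listed promoters, chr7:113207531-113207557, plus strand: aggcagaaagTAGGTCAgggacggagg
Per1, E-box, chr11:69098758-69098813, plus strand: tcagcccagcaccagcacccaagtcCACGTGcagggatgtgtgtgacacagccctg
Per3, 2 D-boxes, chr4:151044791-151044895, minus strand: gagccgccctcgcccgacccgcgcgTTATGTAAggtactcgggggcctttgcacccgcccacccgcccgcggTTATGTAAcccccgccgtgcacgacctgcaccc
Cry2, E-prime box read on the opposite strand, chr2:92434205-92434260, minus strand: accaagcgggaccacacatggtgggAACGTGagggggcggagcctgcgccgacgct
Nr1d1, E-prime box read on the opposite strand, chr11:98775378-98775430, minus strand: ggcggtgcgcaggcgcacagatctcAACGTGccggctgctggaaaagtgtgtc
Ciart, 3 E-boxes, chr3:95882242-95882369, minus strand: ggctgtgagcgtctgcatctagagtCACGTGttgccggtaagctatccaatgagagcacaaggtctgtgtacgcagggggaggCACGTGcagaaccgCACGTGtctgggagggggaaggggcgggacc

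The libraries held 4183709 to 10130667 UMIs (unique molecular identifiers, each standing for 1 captured RNA molecule). After filtering, 9505 nuclei were kept, and clusters were named from marker genes without using any clock gene for the clustering. Microglia, the cell type of the label, were the largest class with 5361 nuclei, followed by neurons (763), oligodendrocytes (651), mural cells (607), astrocytes (570), fibroblasts (510), border-associated macrophages (340) and a class of monocytes or neutrophils (206). Each of these 8 classes held at least 20 nuclei of every library. In all 8, the class's own marker list was detected, but the leading genes of the monocyte or neutrophil cluster also included Igkc, Cd74 and H2-Aa, which belong to B cells and antigen presentation. Cell barcodes occurring in 2 libraries numbered 13. UMIs of a gene were summed over the nuclei of a class in a library and expressed as CPM, the UMIs of a gene in each 1000000 UMIs of that sum. Such sums are not scaled to transcript length, so levels are compared between classes or libraries within a gene and not between genes.

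Among the activators, Clock was the most even gene of the list. Its mean over the 5 libraries ran from 108 CPM in astrocytes (SD 17.0) to 210 CPM in border-associated macrophages (SD 40.5), and the ranges of neighbouring classes in that order overlapped throughout. Arntl differed more. Its mean was 150 CPM in mural cells (SD 64.9, n = 5), 116 in border-associated macrophages (SD 30.4), 111 in astrocytes (SD 27.0), 93.8 in fibroblasts (SD 33.9) and 77.3 in neurons (SD 7.88), all with overlapping neighbours. Below a gap came microglia at 39.3 CPM (range 33.2 to 43.8), apart from neurons (66.5 to 84.3), and then oligodendrocytes at 27.2 and monocytes or neutrophils at 26.3.

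The repressors Per3 and Cry2 were highest in astrocytes. Per3 averaged 143 CPM there (105 to 187), above the whole range of fibroblasts (53.3 to 103), while mural cells held only 7.90 CPM (0 to 22.3) and microglia 23.2 CPM. Cry2 averaged 128 CPM in astrocytes (113 to 146) and 49.1 CPM in neurons (36.5 to 68.1), again with ranges apart, but only 9.04 CPM in microglia and 8.83 CPM in border-associated macrophages. Per1, which responds to light and other acute signals as well as to the clock, was highest in fibroblasts with a mean of 37.3 CPM (10.7 to 61.5), and its lowest mean was 4.98 CPM, in microglia. Per2 averaged 36.0 CPM in astrocytes (23.4 to 56.2), 18.2 in neurons and 17.2 in fibroblasts, but 3.34 in microglia and 2.52 in oligodendrocytes, and every pair of neighbouring classes overlapped.

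Of the REV-ERB genes, Nr1d2 was the more widely detected. It averaged 152 CPM in astrocytes (137 to 163), 122 in neurons, 104 in fibroblasts, 98.0 in mural cells, 57.7 in microglia, 53.1 in oligodendrocytes and 36.0 in border-associated macrophages, with overlap between neighbours in this order. Nr1d1 averaged 35.3 CPM in astrocytes (21.5 to 54.9), 15.4 in mural cells, 15.4 in neurons, 12.2 in fibroblasts (7.73 to 16.4) and 1.96 in microglia (0.695 to 3.78). In border-associated macrophages Nr1d1 had 0 UMIs in all 5 libraries, which allows up to 3.21 CPM, counting error only.

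The outputs were sparse. Dbp averaged 31.1 CPM in astrocytes (15.2 to 44.5), 15.3 in mural cells and 12.9 in neurons, and stayed below 10 CPM on average in the other classes. Ciart did not exceed a mean of 4.76 CPM in any of the 8 classes, and it had 0 UMIs in mural cells, fibroblasts, border-associated macrophages and monocytes or neutrophils. The limits that 0 UMIs allow there are 2.73, 1.66, 3.21 and 6.69 CPM.

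**Figure D1:**
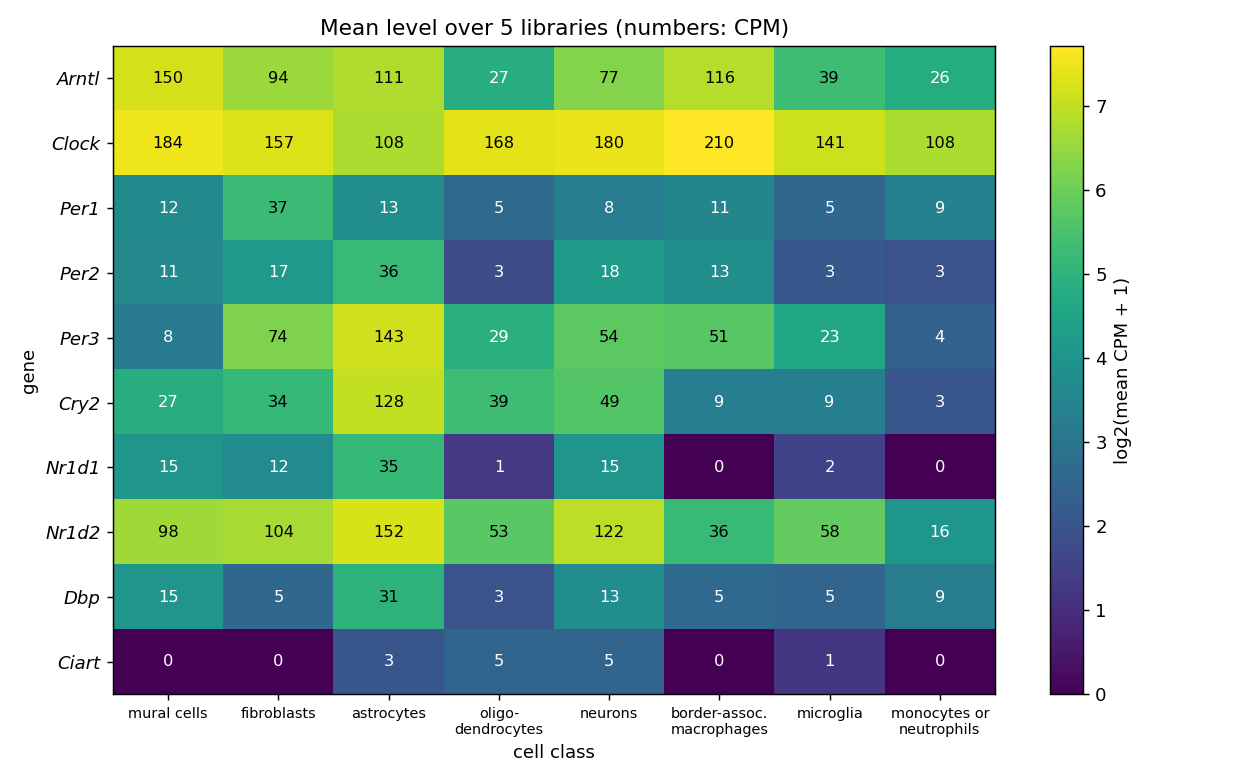
Mean level of each clock gene (rows) over the 5 libraries in each of 8 cell classes (columns), with the mean CPM printed in each field and colour giving log2(mean CPM + 1). Rows should be read one at a time: astrocytes hold the highest mean of Per2, Per3 (143), Cry2 (128), Nr1d1, Nr1d2 and Dbp, mural cells that of Arntl (150), and microglia are below 10 CPM for Per1, Per2, Cry2, Nr1d1, Dbp and Ciart.

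The same contrasts were tested with edgeR's quasi-likelihood method, each class against the mean of the other 7, with library as a block and Benjamini-Hochberg adjustment over 10296 genes. Per2, Dbp and Ciart did not pass the filter on low counts, which left 7 listed genes. In astrocytes 5 of the 7 were called, all higher, where 49.8% of all genes tested were called in either direction. Cry2 was 3.25 (SE 0.16) higher there on the log2 scale (adjusted p = 4.83e-22), Per3 was 2.68 (SE 0.23) higher (adjusted p = 5.9e-14) and Nr1d2 was 1.61 (SE 0.19) higher (adjusted p = 5.26e-10). Neurons had 6 called, all higher, against 50.7% of all genes, and fibroblasts 6 called, all higher, against 39.2%, led by Per1 at 2.18 (SE 0.32, adjusted p = 1.33e-07). Mural cells had 3 called higher and 1 lower, against 34.8%. The higher genes include Arntl and Nr1d2, whose mural values chose the list, so no p is given for them. Arntl was 1.11 (SE 0.20) higher over both genotypes. Its mural mean was 192 CPM in the WT mice, above 109 in border-associated macrophages and 126.9 in astrocytes. In the R241E mice its mural mean was 85.75 CPM, below 126.7 and 87.65 CPM in those classes. Per3 was the lower gene, at -2.26 (SE 0.57, adjusted p = 0.00139).

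In microglia 3 of the 7 were called, all lower, against 52.1% of all genes. These were Cry2 at -1.41 (SE 0.37, adjusted p = 0.00248), Per1 at -1.25 (SE 0.32, adjusted p = 0.00103) and Arntl at -0.94 (SE 0.17, adjusted p = 5.75e-06). Border-associated macrophages had 1 called higher, Arntl at 0.79 (SE 0.21, adjusted p = 0.00168), and 2 lower, Cry2 and Nr1d2, against 39.9%. Oligodendrocytes had 2 higher, Clock and Cry2, and 1 lower, Arntl, against 50.3%. Monocytes or neutrophils had 5 lower against 40.5%. In microglia, border-associated macrophages and oligodendrocytes the number called was within 1 gene of the background. Because Nr1d1 had 0 UMIs in 2 classes, its fitted differences depend on the prior count and are not given. It is nevertheless counted among the genes called higher in astrocytes, neurons, fibroblasts and mural cells.

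In mural cells, the values that led to the list were as follows. Nr1d2 stood at 162 and 167 CPM in the R241E mice and at 38.9, 65.7 and 56.2 CPM in the WT mice. Arntl stood at 101 and 70.6 CPM in the R241E mice and at 221, 149 and 206 CPM in the WT mice. The groups did not overlap for either gene, and they lay on opposite sides. Nr1d2 lies at chr14:18204056-18239106 and Arntl at chr7:113178471-113314126 on GRCm38.p6. Nr1d1, which shares its regulation with Nr1d2 but did not pass the filter, had 16 and 9 UMIs (37.5 and 33.5 CPM) in the R241E mice and 0, 1 and 0 UMIs in the WT mice. Clock lay between 156 and 204 CPM in all 5 libraries. Fitted differences (R241E minus WT, log2) were 1.53 for Nr1d2, -1.09 for Arntl and 0.06 for Clock. Of the 3 listed genes that passed the filter there, 2 did not overlap between genotypes, as did 18.5% of all genes tested, and nothing is read from this since the contrast chose the list. WT mouse 1 gave only 37 mural nuclei. The summed markers of oligodendrocytes, of which 6 of 7 were detected in mural nuclei, were 202 and 204 CPM in the R241E mice and 64.9 to 131 CPM in the WT mice, and their part in these values was not tested.

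Whether the genotypes differed in other classes was then asked class by class. These classes come from the same 5 libraries, so they are further readings of the same mice and not new mice. Over 6 classes there were 35 tests of listed genes, of which 6 had an unadjusted edgeR p under 0.05, beside 11.6% of the tests of all genes in these classes. They were 3 of 6 in fibroblasts (417 of all 5811 genes), 2 of 8 in astrocytes (734 of 7873) and 1 of 6 in neurons (875 of 8945). Microglia had 0 of 8 (2566 of 12695), border-associated macrophages 0 of 2 (318 of 3861) and oligodendrocytes 0 of 5 (285 of 5613). Of the 35, 0 passed the adjusted threshold of 0.05 by edgeR's quasi-likelihood test. Limma-voom also gave 0 in each of the 6 classes, and DESeq2 gave 0 in 5 of them. In fibroblasts DESeq2 assigned no adjusted p to any of the 6 listed genes tested, as was so for 5069 of the 5811 genes fitted there.

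Fibroblasts came nearest to the mural values. Nr1d2 stood at 161 and 178 CPM in the R241E mice and at 53.3, 48.8 and 77.3 CPM in the WT mice. Both R241E libraries were above all WT libraries, by 1.51 (SE 0.28) on the log2 scale (edgeR adjusted p = 0.114). WT mouse 1 contributed 5 UMIs of this gene from 30 nuclei. It was called without R241E mouse 1 (1.58, adjusted p = 0.0109) and without R241E mouse 2 (1.47, adjusted p = 0.00994), fits in which the lone R241E mouse is assumed to vary as the WT mice do. Without 1 WT mouse it was not called (adjusted p 0.290 to 0.461), while the difference stayed between 1.33 and 1.80. Arntl was at 69.0 and 67.7 CPM in the R241E mice and at 85.3, 150 and 96.6 CPM in the WT mice, on the opposite side, at -0.70 (SE 0.30, adjusted p = 0.650). Per3 was at 103 and 90.2 CPM against 53.3, 69.1 and 54.1 CPM, a difference of 0.74 (SE 0.29, adjusted p = 0.594). Per1 overlapped, with 38.6 and 61.5 CPM in the R241E mice and 10.7, 44.7 and 30.9 CPM in the WT mice. Of the 6 listed genes that passed the filter, 3 did not overlap between genotypes, where 21.1% of all genes did not, and 0 were called, where 0.0172% of all genes were called.

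The fibroblast class was made of 3 clusters, and their mix differed. A cluster led by Slc47a1 held 104 of 167 fibroblast nuclei of R241E mouse 1 and 58 of 152 of R241E mouse 2, but 9 of 30, 17 of 67 and 38 of 94 of the WT mice. Within that cluster Nr1d2 was at 176 and 212 CPM in the R241E mice and at 0, 23.7 and 41.3 CPM in the WT mice, on 0, 2 and 5 UMIs. Within the cluster led by Lama1 it was at 121 and 154 CPM in the R241E mice and at 90.5, 38.1 and 100 CPM in the WT mice. Both R241E mice were above all WT mice inside each of these clusters. In the remaining cluster, led by Cemip, with 5 to 25 nuclei in the libraries that had any, Nr1d2 overlapped at 202 and 139 CPM in the R241E mice and at 165 and 166 CPM in WT mice 2 and 3. Arntl did not keep its separation in both: in the cluster led by Lama1 the R241E mice (111 and 91.5 CPM) overlapped the WT mice (127, 167 and 109 CPM), and in the cluster led by Slc47a1 they were at 50.2 and 39.7 CPM against 26.0, 107 and 74.4 CPM. Across the whole class, summed markers of astrocytes (7 of 7 detected) were 2103 and 2829 CPM in the R241E mice and 3284 to 3667 CPM in the WT mice. Those of oligodendrocyte precursors (5 of 5 detected), a list that includes Pdgfra, also a leading gene of fibroblasts here, were 372 and 870 CPM against 980 to 1461 CPM. Endothelial markers (6 of 6 detected) were 167 and 193 CPM against 134 to 149 CPM. The part of these lists in the results was not tested.

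Astrocytes showed smaller differences in Arntl and Per3 and little in Nr1d2. Per3 stood at 187 and 177 CPM in the R241E mice and at 116, 131 and 105 CPM in the WT mice, a difference of 0.69 (SE 0.21, adjusted p = 0.274). Dbp stood at 44.5 and 43.7 CPM in the R241E mice and at 15.2, 34.6 and 17.6 CPM in the WT mice, a difference of 1.09 (SE 0.39, adjusted p = 0.340). Both genes were higher in both R241E mice than in any WT mouse. Arntl stood at 88.0 and 87.3 CPM against 104, 150 and 127 CPM, the other way, at -0.48 (SE 0.24, adjusted p = 0.569). Nr1d2 stood at 163 and 160 CPM against 137, 150 and 150 CPM, so that the groups were apart by a small step (0.19, SE 0.20, adjusted p = 0.883). Nr1d1 overlapped, with 32.6 and 29.1 CPM in the R241E mice and 54.9, 38.5 and 21.5 CPM in the WT mice. Of the 8 that passed the filter, 4 did not overlap between genotypes, where 23.9% of all genes did not, and 0 were called, where 0.457% were.

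Astrocyte nuclei of the groups also lay in different clusters. Most nuclei of the R241E mice (171 of 177 and 80 of 127) and of WT mouse 1 (38 of 64) were in the cluster led by Gm20713, Gpc5, Gm6145 and Atp13a4, and most of WT mice 2 and 3 (41 of 58 and 119 of 144) in the cluster led by Gm20713, Gpc5, Gm6145 and Rorb. Within the former, Per3 was at 192 and 171 CPM in the R241E mice and at 93.7, 116 and 156 CPM in the WT mice. Within the latter it overlapped, at 56.5 (2 UMIs) and 186 CPM against 140, 137 and 92.8 CPM. Nr1d2 in the former was at 168 and 154 CPM in the R241E mice and at 129, 77.2 and 127 CPM in the WT mice, and in the latter it overlapped, at 28.2 (1 UMI) and 170 CPM against 146, 181 and 156 CPM. Summed markers of oligodendrocyte precursors (5 of 5 detected) were 226 and 127 CPM in R241E astrocytes and 53.9 to 94.6 CPM in WT astrocytes, and their part in the results was not tested.

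**Figure D2:**
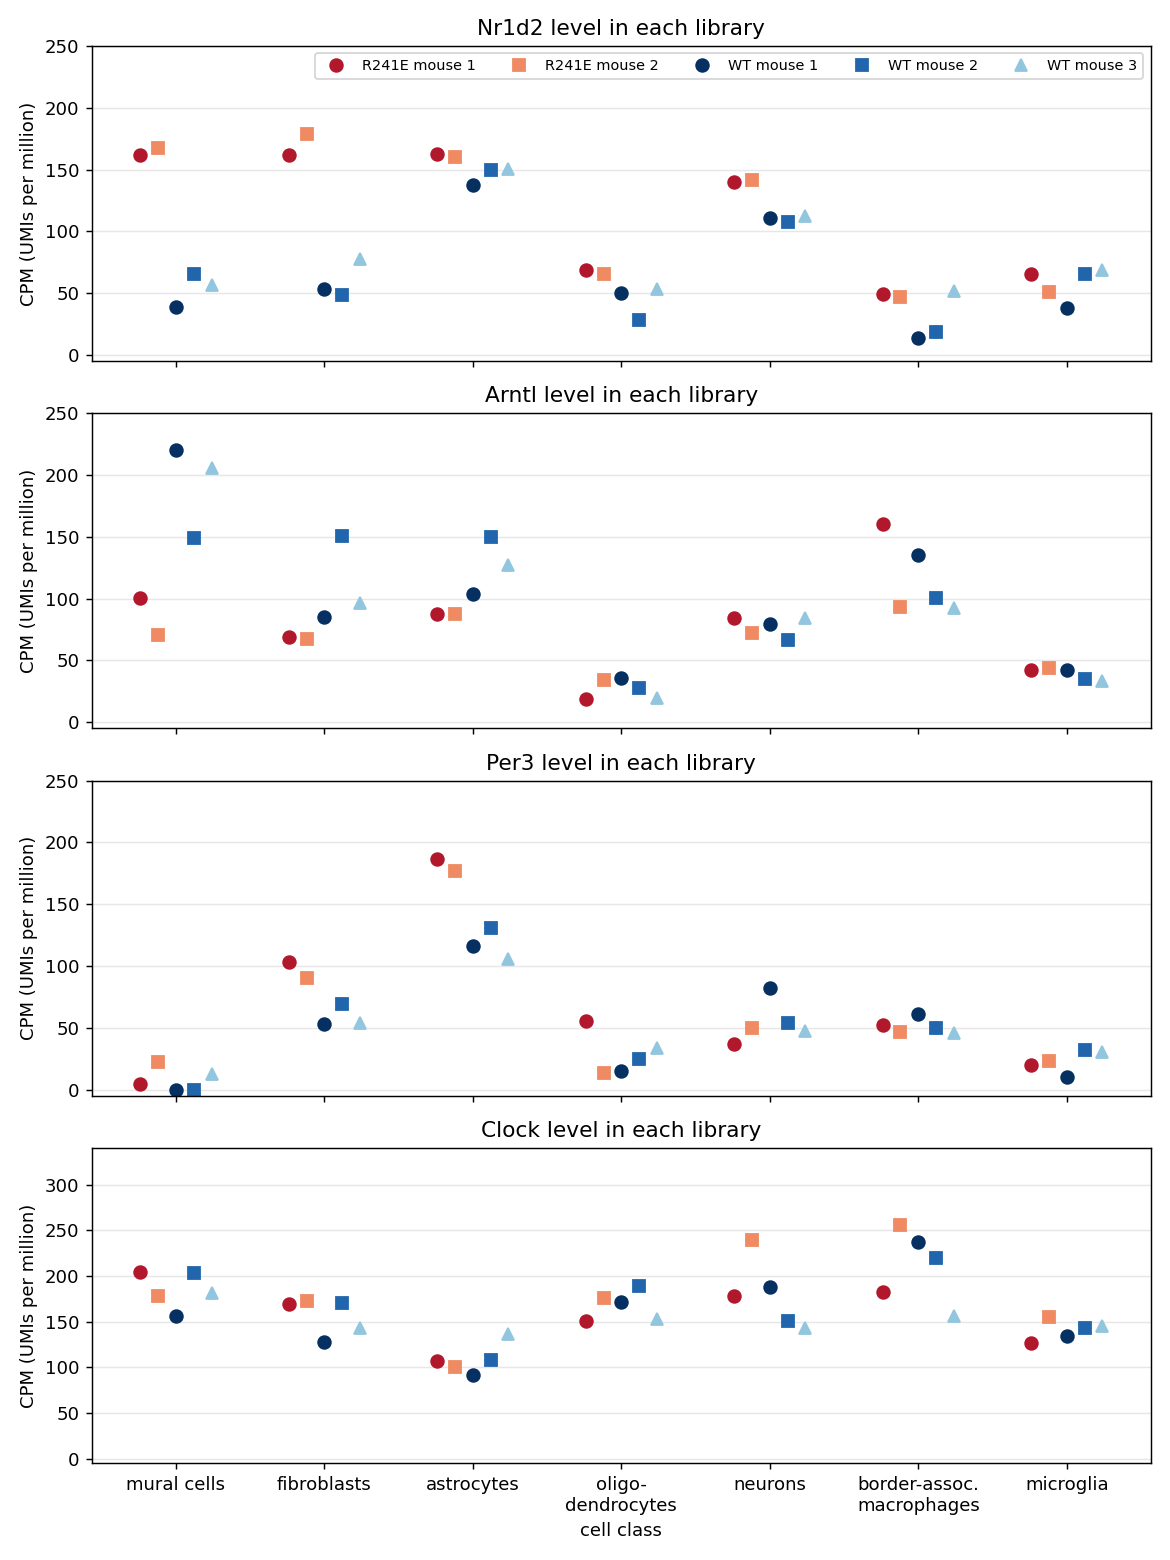
Level of Nr1d2, Arntl, Per3 and Clock (panels, CPM on a linear axis) in each library (points, red and orange for the 2 R241E mice and shades of blue for the 3 WT mice) in 7 cell classes. R241E points lie apart from WT points for Nr1d2 in mural cells, fibroblasts, astrocytes, neurons and oligodendrocytes, for Arntl in mural cells, fibroblasts and astrocytes, and for Per3 in fibroblasts and astrocytes. In microglia and border-associated macrophages, and for Clock in every class, they overlap.

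In neurons and oligodendrocytes, Nr1d2 was again higher in both R241E mice, without passing the test. In neurons it stood at 140 and 142 CPM in the R241E mice and at 110, 107 and 112 CPM in the WT mice (0.31, SE 0.21, adjusted p = 0.719). In oligodendrocytes it stood at 68.7 and 65.3 CPM in the R241E mice and at 50.2, 28.1 and 53.4 CPM in the WT mice (0.59, SE 0.31, adjusted p = 1). In the larger oligodendrocyte cluster, led by A330049N07Rik and holding 499 of the 651 nuclei, Nr1d2 overlapped, at 64.8 and 43.1 CPM against 53.7, 30.4 and 58.9 CPM. Arntl overlapped in both classes, with 84.3 and 71.9 CPM against 79.2, 66.5 and 84.3 CPM in neurons and with 18.9 and 34.4 CPM against 35.4, 28.1 and 19.4 CPM in oligodendrocytes.

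Cry2 in neurons stood at 68.1 and 60.8 CPM in the R241E mice and at 37.3, 42.9 and 36.5 CPM in the WT mice (0.68, SE 0.26, adjusted p = 0.441). Per3 in neurons lay on neither side, with 37.3 and 49.8 CPM against 82.2, 53.7 and 47.8 CPM. Of the 6 listed genes that passed the filter in neurons, 2 did not overlap, where 25.1% of all genes did not, and 0 were called, where 0.0112% were. Of the 5 that passed in oligodendrocytes, 1 did not overlap, where 18.4% did not, and 0 were called, where 0.285% were. Neurons were a mixed class: 147 of the 284 neuronal nuclei of WT mouse 1 lay in a cluster led by Nxph1 that held 2 and 5 nuclei of the R241E mice. In the cluster led by Reln, which held 42 to 52 nuclei of every library, Nr1d2 overlapped, at 158 and 133 CPM in the R241E mice and at 73.6, 102 and 144 CPM in the WT mice. Summed markers of neurons (8 of 8 detected) were 19800 and 17490 CPM in the R241E mice and 12120 to 17380 CPM in the WT mice, with WT mouse 1 lowest, and their part in the neuronal values was not tested.

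Microglia, the class in which the driver acts and the most deeply sampled, did not show the mural pattern. Nr1d2 stood at 65.6 and 50.7 CPM in the R241E mice and at 38.1, 65.3 and 68.8 CPM in the WT mice (0.02, SE 0.20, adjusted p = 0.984). Arntl stood at 41.9 and 43.8 CPM in the R241E mice and at 42.5, 35.3 and 33.2 CPM in the WT mice (0.21, SE 0.16, adjusted p = 0.554). Per3 stood at 19.9 and 22.9 CPM in the R241E mice and at 10.5, 31.8 and 30.8 CPM in the WT mice. The library that stood apart for Nr1d2 and Per3 was WT mouse 1, the lowest in both, and Dbp was lowest there too, at 1.62 CPM against 4.17 to 6.46 CPM in the other 4. Clock ranged from 126 to 155 CPM, and the genotypes overlapped. Microglial nuclei of the genotypes lay largely in different clusters. A cluster led by Olfr111 held 22 and 46 nuclei of the R241E mice and 758, 1037 and 701 of the WT mice. A cluster led by Ifi207, a gene of the interferon-inducible Ifi200 family, held 603 and 226 nuclei of the R241E mice and 44, 79 and 69 of the WT mice. Nr1d2 overlapped within both, at 72.8 and 54.6 CPM against 38.7, 62.7 and 66.2 CPM in the former and at 65.9 and 52.4 CPM against 44.4, 57.8 and 70.1 CPM in the latter.

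Cry2 was the 1 gene of 8 tested in microglia whose groups did not overlap, at 7.25 and 7.64 CPM in the R241E mice and at 9.72, 11.3 and 9.28 CPM in the WT mice (-0.47, SE 0.29, adjusted p = 0.414), where 37.5% of all genes did not overlap. Within the cluster led by Olfr111 Cry2 overlapped, at 0 and 10.9 CPM (0 and 1 UMI) against 8.44, 8.90 and 10.5 CPM, and within the cluster led by Ifi207 it was at 7.78 and 11.1 CPM against 22.2, 25.3 and 16.2 CPM, on 3, 7 and 3 UMIs. None of the 8 was called by edgeR, 0 of them at an unadjusted p under 0.05, where 8.75% of all genes were called. In border-associated macrophages only Arntl and Clock passed the filter. Arntl was at 160 and 92.9 CPM in the R241E mice and at 135, 100 and 92.4 CPM in the WT mice. Nr1d2 was at 49.4 and 46.4 CPM on 16 and 6 UMIs, against 13.5, 18.8 and 52.0 CPM on 2, 3 and 9 UMIs. Neither tested gene was apart between genotypes, where 23.6% of all genes were, and 0 were called, where 0.777% were.

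To test for a genotype difference in all classes at once, log2 CPM was averaged for each library over the 7 classes other than mural. Each class had the same weight, and limma was run over 16364 genes. A shift shared by all classes of a single mouse, but not by its genotype group, only adds to the spread here. Such a shift was not tested. Among these classes, monocytes or neutrophils had no listed gene pass the filter and held few UMIs of most of them. Arntl had 7 and 2 UMIs there in the R241E mice and 0, 3 and 1 in the WT mice. Nr1d2 averaged 6.63 and 6.69 in the R241E mice and 5.94, 5.95 and 6.52 in the WT mice on the log2 CPM scale. The difference was 0.53 (SE 0.18), with both R241E mice above every WT mouse, and it missed the threshold (adjusted p = 0.364). Dbp was 0.50 (SE 0.21) higher and Ciart 0.37 (SE 0.16) higher, also with both R241E mice on top (adjusted p = 0.563 and 0.575). Arntl, whose transcripts peak opposite to those of Nr1d2, averaged 6.30 and 6.21 in the R241E mice and 6.23, 6.44 and 6.09 in the WT mice, a difference of 0.00 (SE 0.15, adjusted p = 0.997). The Arntl difference turned negative without monocytes or neutrophils, as given further below.

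The other listed genes overlapped between genotypes, at 0.37 for Per1, 0.25 for Nr1d1, 0.18 for Per3, 0.11 for Clock, 0.10 for Cry2 and -0.02 for Per2. In all, 9 of the 10 differences were above 0 with a median of 0.21, beside 56.4% above 0 and a median of 0.03 over all 16364 genes. The 9 include Arntl at 0.003 (SE 0.15), whose sign changed under alternatives given further below. They also include Ciart, which had 0 UMIs in fibroblasts, border-associated macrophages and monocytes or neutrophils. Groups were apart for 3 of the 10, where 24% of all genes were apart. None of the 10 was called by limma, where 0.776% of all genes were, and 3 had an unadjusted p under 0.05, as had 8.11% of all genes. Nr1d2 was called when WT mouse 3 was left out (0.72, adjusted p = 0.0273), so that the call depended on that library. WT mouse 3 was the WT library with the highest class-averaged Nr1d2.

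**Figure D3:**
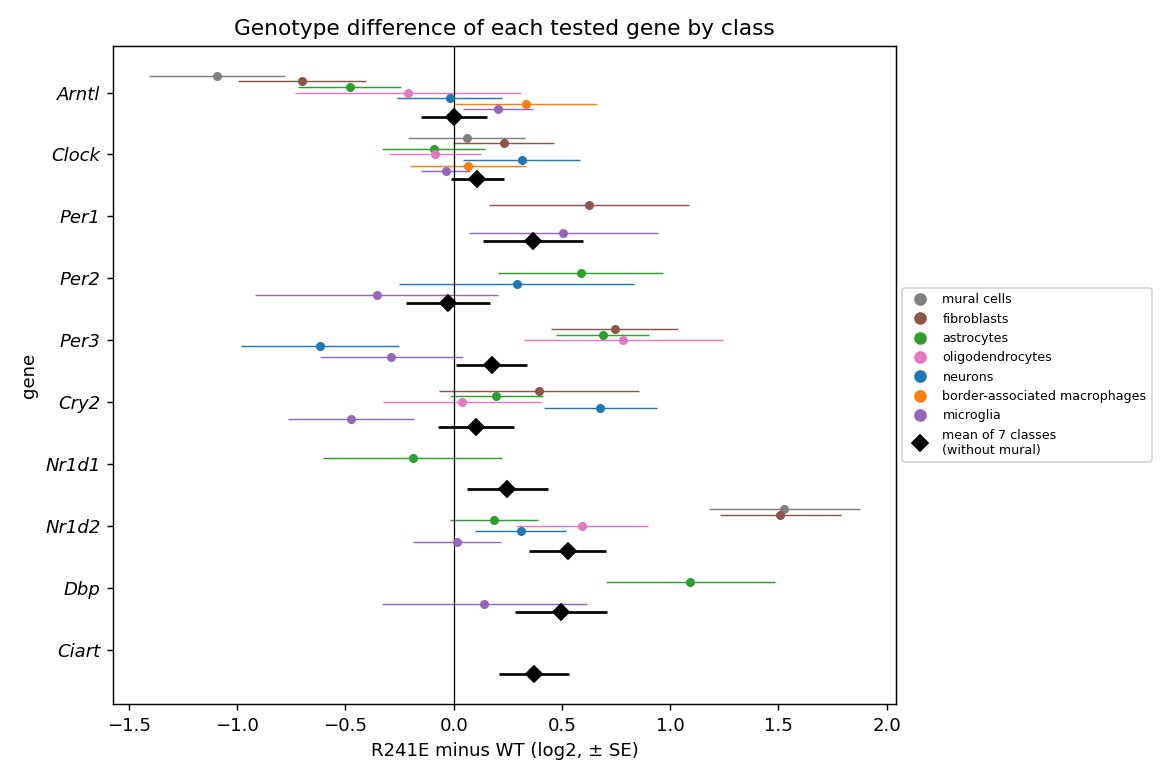
Genotype difference (R241E minus WT, log2, with bars of 1 SE) of each clock gene in each class in which it passed the filter on low counts (coloured points, from edgeR) and in the mean of the 7 classes other than mural (black diamonds, from limma). Nr1d2 is near 1.5 in mural cells and fibroblasts and 0.02 in microglia, and Arntl runs from -1.09 in mural cells to 0.33 in border-associated macrophages, around a class mean of 0.00. The class mean includes monocytes or neutrophils, in which no listed gene passed the filter.

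Whether the genotype difference in microglia differed from that in the other classes was tested in the same way, as log2 CPM in microglia minus the mean of the other 6 classes. For Nr1d2 the difference was 0.04 in microglia and 0.61 in the others, which gave -0.57 (SE 0.30, adjusted p = 0.503). For Cry2 it was -0.42 in microglia and 0.19 in the others, which gave -0.60 (SE 0.38, adjusted p = 0.579). Ciart had the largest value, -1.13 (SE 0.41, adjusted p = 0.274), on at most 8 UMIs in any library and class. By limma 0 of the 10 were called and 1 had an unadjusted p under 0.05, where 1.56% of all genes were called and 11.9% had such a p.

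As a summary that does not depend on the scaling of libraries, the UMIs of Nr1d1, Nr1d2, Dbp, Ciart, Per1, Per2 and Per3, which peak opposite to Arntl, were expressed as a percentage of their sum with Arntl. This clock output share has no test, since the genes were chosen with results known. Intervals are exact 95% Clopper-Pearson intervals and cover counting error only. In mural cells, which chose the list, the share was 69.5% and 80.8% in the R241E mice and 19.0%, 40.5% and 36.5% in the WT mice. In fibroblasts it was 83.1% (78.3 to 87.2) and 84.7% (79.2 to 89.2) in the R241E mice and 61.9% (38.4 to 81.9), 56.5% (45.3 to 67.2) and 67.5% (55.9 to 77.8) for WT mice 1 to 3. The group means were 83.9% ± 1.18 (SD, n = 2) and 62.0% ± 5.53 (SD, n = 3).

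In astrocytes the share was 84.6% (81.2 to 87.6) and 84.8% (80.1 to 88.8) in the R241E mice and 78.2% (70.9 to 84.4), 72.5% (64.4 to 79.7) and 72.2% (66.0 to 77.9) for WT mice 1 to 3. Both R241E mice were again above all WT mice, by 10.4 points between group means. In neurons the shares lay between 72.5% and 78.8% in all 5 libraries, and the means differed by 2.53 points with overlap. In oligodendrocytes R241E mouse 1 was at 88.4% and R241E mouse 2 at 75.6%, inside the WT span of 68.4% to 84.0%. In border-associated macrophages the shares were 40.9% and 58.6% in the R241E mice and 48.4% to 55.6% in the WT mice, on 29 to 88 UMIs, which cannot resolve differences of this size.

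In microglia the order of libraries was another. WT mouse 3 was highest at 78.3% (74.5 to 81.8) and WT mouse 2 followed at 76.3% (72.9 to 79.6), then came R241E mouse 1 at 71.3% (66.9 to 75.4), R241E mouse 2 at 67.2% (60.1 to 73.8) and WT mouse 1 at 58.0% (51.6 to 64.2). The spread among the 3 WT mice (SD 11.2 points) was larger than the difference of group means (-1.65 points). The interval of WT mouse 1 did not overlap those of WT mice 2 and 3.

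Over the 7 classes with at least 20 such UMIs in every library, R241E mouse 2 was highest in 5, R241E mouse 1 in 1 and WT mouse 3 in 1. WT mouse 1 was lowest in 3 (mural cells, oligodendrocytes and microglia), WT mouse 3 in 2 (astrocytes and neurons), and WT mouse 2 and R241E mouse 1 in 1 each. Mural cells are among these 7, and their values chose the list. In the 6 other classes R241E mouse 2 was highest in 4, R241E mouse 1 and WT mouse 3 in 1 each, and WT mouse 1 was lowest in 2. Many of these places lie within counting error. All 5 intervals overlapped in neurons and in border-associated macrophages, and WT mice 2 and 3 differed by less than 1 point in astrocytes. Whether the libraries had 1 common order in every class therefore cannot be read from the places alone. With intervals that did not overlap, WT mouse 3 was above R241E mouse 2 in microglia and below it in astrocytes. A part played by time of day in any single class was not tested, since no label gives it.

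**Figure D4:**
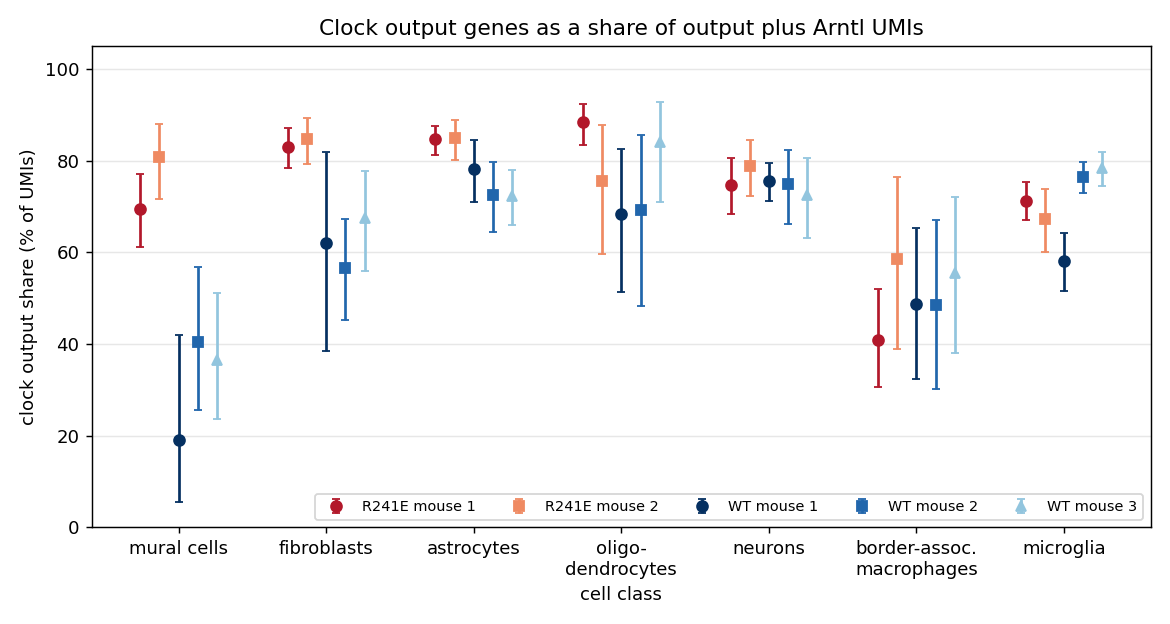
Clock output share (UMIs of 7 output genes as a percentage of these plus Arntl UMIs) in each library and class, with exact 95% intervals for counting error, red and orange for R241E and shades of blue for WT mice. R241E points lie above WT points in mural cells, fibroblasts and astrocytes, shares are between 72.5% and 78.8% in neurons, and in microglia WT mouse 1 (58.0%) is lowest and WT mouse 3 (78.3%) is highest.

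Another 18 clock genes were measured as a second list: partners and relatives of the core genes, the kinases and ubiquitin ligase subunits that set the stability of PER and CRY, and further outputs. In the class average 0 of the 18 were called by limma, where 0.776% of all genes were. Of the 18, 11 were above 0, beside 56.4% of all genes, and their median was 0.03, as over all genes. The largest difference was that of Bhlhe40, picked out after its values were seen, at 0.561 (SE 0.185, limma adjusted p = 0.352). Both R241E mice were above every WT mouse for it, as for Nr1d2. In microglia Bhlhe40 did not pass the filter. In microglia 13 passed the filter, of which 1 was called higher and 1 lower, where 8.75% of all genes were called in either direction. Bhlhe41 (DEC2), a repressor that acts at E-boxes, stood at 168 and 158 CPM in the R241E mice and at 108, 109 and 137 CPM in the WT mice (0.46, SE 0.12, edgeR adjusted p = 0.0196). It was no longer called without R241E mouse 1 (0.39, adjusted p = 0.247), R241E mouse 2 (0.50, adjusted p = 0.0622), WT mouse 1 (0.41, adjusted p = 0.0813) or WT mouse 2 (0.41, adjusted p = 0.118), although the difference stayed close in size. Without an R241E mouse the fit holds 1 mouse of that genotype. Usp2, a ubiquitin protease that is itself a clock output, stood at 60.8 and 63.2 CPM in the R241E mice and at 97.2, 96.9 and 86.8 CPM in the WT mice (-0.61, SE 0.13, edgeR adjusted p = 0.00503), and was not called without R241E mouse 1 (-0.59, adjusted p = 0.102). Both genes were apart between the genotypes. Within the cluster led by Ifi207, which held most R241E nuclei, Bhlhe41 was at 168 and 162 CPM against 88.7, 101 and 124 CPM and Usp2 at 58.6 and 63.6 CPM against 88.7, 108 and 86.3 CPM, apart again. Within the cluster led by Olfr111, which held most WT nuclei, Bhlhe41 overlapped, at 255 and 142 CPM (14 and 13 UMIs) against 109, 112 and 145 CPM. Usp2 there was at 91.0 and 65.5 CPM (5 and 6 UMIs) against 92.9, 97.6 and 96.2 CPM. Another cluster, led by Gm35154, held 122 and 93 nuclei of the R241E mice and 77, 257 and 471 of the WT mice. Usp2 overlapped within it, at 72.4 and 88.9 CPM against 111, 82.1 and 77.7 CPM. Bhlhe41 was apart within it, at 153 and 199 CPM against 111, 115 and 138 CPM. Summed markers of oligodendrocytes (7 of 7 detected) were 210 and 301 CPM in R241E microglia and 126 to 144 CPM in WT microglia, and their part in these results was not tested.

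Outside microglia, none of the second list was called by edgeR in any class tested. In fibroblasts, Npas2, which can stand in for Clock and is itself repressed by REV-ERB proteins, was at 60.7 and 107 CPM in the R241E mice and at 203, 268 and 162 CPM in the WT mice (-1.32, SE 0.31, adjusted p = 0.209). It lay on the side of Arntl there. Cry1, a repressor that peaks later than Cry2, was at 8.28 and 14.4 CPM in the R241E mice and at 53.3, 56.9 and 23.2 CPM in the WT mice (-1.89, SE 0.68, adjusted p = 0.538). Npas2 and Cry1 were picked out after their values were seen. In the fibroblast cluster led by Lama1, Npas2 was at 155 and 160 CPM in the R241E mice and at 326, 358 and 267 CPM in the WT mice. In the cluster led by Slc47a1 it overlapped, at 14.0 and 35.3 CPM against 25.95, 59.3 and 57.85 CPM. It also overlapped in the cluster led by Cemip, at 252 and 186 CPM against 462 and 166 CPM in WT mice 2 and 3. The mix of these clusters differed between mice, as given above, and its part in the class values was not tested. In astrocytes Npas2 overlapped, at 176 and 175 CPM against 265, 162 and 203 CPM.

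Glucocorticoids also follow the time of day and rise with stress, and handling induces immediate early genes, so lists of both were read beside the clock genes. Of 8 glucocorticoid-responsive genes 0 were called in the class average, where 0.776% of all genes were. Of the 8, 7 were above 0, beside 56.4% of all genes, and the median difference was 0.08, beside 0.03 over all genes. Fkbp5, a standard target of the glucocorticoid receptor, overlapped in fibroblasts, at 327 and 174 CPM in the R241E mice and at 171, 167 and 244 CPM in the WT mice. In microglia, where 8.75% of all genes were called and the genotypes lay in different clusters, 1 of the 6 tested was called, Cdkn1a, which also responds to DNA damage, at 14.2 and 11.1 CPM in the R241E mice and 2.54 to 2.84 CPM in the WT mice (2.26, SE 0.34, edgeR adjusted p = 0.000341). Of the 10 immediate early genes, 9 passed the filter of the class average, 0 were called, 6 were above 0 and the median was 0.20. The largest difference was that of Fos, picked out after its values were seen, at 0.576 (SE 0.248, limma adjusted p = 0.569), with overlap between genotypes. Of the 4 tested in microglia 1 was called, Junb, at 121 and 145 CPM in the R241E mice and 87.9 to 108 CPM in the WT mice (0.43, SE 0.12, edgeR adjusted p = 0.0335). Their part in the clock gene values was not tested.

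The genes whose levels varied most like Nr1d2 were sought over 35 values (5 libraries in 7 classes, each class centred on its own mean). These points share libraries and depth, so the correlations are a description. Pak4 (r = 0.74), Rad54l2 (0.68), Phpt1 (0.66), Hint1 (0.66) and Psma2 (0.65) were nearest to Nr1d2 of 16363 genes, and Phykpl (-0.66), Angpt2 (-0.65), Kat6a (-0.65), Pip5k1a (-0.64) and 2610008E11Rik (-0.64) were farthest. Among clock genes Dbp was nearest (r = 0.53, place 97), and Cry1 was almost at the other end (r = -0.56, place 16344). Arntl was at r = -0.31 to Nr1d2. Nearest to Arntl were Ehbp1 (0.69), Top1 (0.68), Clcn3 (0.67), Itsn2 (0.66) and Mbtd1 (0.66), and farthest were Gm48226 (-0.71), Mrpl51 (-0.66), Serpinb6a (-0.66), Gm1673 (-0.64) and 4732440D04Rik (-0.64). Clock was at place 232 for Arntl (r = 0.42), and Per3 at r = -0.32.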

How the data were processed

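Single-nucleus libraries were made with 10x Genomics 3′ chemistry from sorted nuclei. The deposited matrices held raw UMI counts for each nucleus. Per the file headers the authors made them with Cell Ranger 7.0.0, and their notes name mm10. Whether read strand or intronic reads entered the counts is not stated, and Nr1d1, Per3, Dbp, Cry2, Ciart and Clock each overlap another counted gene, so reads may be shared. The authors' processing notes also name Seurat.

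Nuclei with at least 200 and under 4500 genes, under 10000 UMIs and under 5% mitochondrial UMIs were kept (9505 of 9748). They were clustered without the clock genes (scanpy 1.11.5, Leiden resolution 1, 26 clusters). Each cluster was named for the marker list with the largest mean log2 fold over other nuclei, provided that at least 3 markers were each detected in 10% of the cluster and that this mean reached 2, a rule set after the clusters were seen. Another 2 clusters (243 nuclei) stayed unnamed. Scrublet called 42 doublets (0.442%), too few to trust, so none were removed, and an alternative left out the 156 highest scores. UMIs were summed per mouse and class and tested with edgeR 4.0.16 or, for class averages, limma 3.58.1 (prior count 2), on genotype alone. The study's own test treats nuclei as replicates and was not used. A treatment text about H151 and DMSO accompanies every sample, but no label assigns either. All genes listed above are described in each class, and from the second list those called. Npas2, Cry1 and Bhlhe40 of the second list, and Fos of the immediate early genes, were added after their values were seen. For likeness the 5 nearest and 5 farthest genes are given. The genes, lists and tests were chosen with earlier results of these data known. Scripts were tested on simulated data.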

Additional observations from a re-analysis of the deposited data

Results flagged for a closer look

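Cry2 was picked out because its groups lay apart in opposite directions in a pair of classes, a difference between those classes that was not tested. In neurons the R241E mice were above all WT mice (log2 difference 0.68), and in microglia they were below all WT mice (-0.47). The test of microglia against the mean of the other classes gave -0.60 (limma adjusted p = 0.579).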

How the results depend on the processing

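Depth limited the sparse genes, since Per1, Per2, Nr1d1, Dbp and Ciart rested on few UMIs in most classes. Of 374 values recomputed under alternatives, 344 kept their direction and their side of the threshold or stayed within the spread of the mice. Among the 344 are counts of listed genes called, which have no direction, such as 14 in astrocytes and 14 in microglia. Another 13 come from monocytes or neutrophils, in which no listed gene passed the filter. Without a filter on low counts 1 listed gene, Nr1d2, was called in fibroblasts (1.59, adjusted p = 0.000656), and leaving out 1 mouse gave 0 to 1 called. Its adjusted p there was 0.0767 to 0.158 under the other alternatives that kept all mice, except the block (0.271) and DESeq2, which gave none for any listed gene in that class. In the class average leaving out 1 mouse also gave 0 to 1 called. The titles do not say whether mice of the same number were paired. In the class average, deviations of same-numbered mice from their group means correlated at 0.122 and -0.002. With only 2 R241E mice their deviations mirror each other, so this check cannot decide on pairing. With the number as a replicate block 1 listed gene, Nr1d2, was called (0.72, limma adjusted p = 0.00407), a fit in which WT mouse 3 has no partner. Over all genes, 127 were called in the class average, 363 with the block, 69 with a prior count of 0.5, and 39 to 179 when 1 mouse was left out. The cause of these changes was not tested.

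The class-averaged difference of Arntl, near 0, turned negative with mural cells included (-0.13), with the replicate block (-0.08), with the upper limits on genes and UMIs lifted (-0.068), at Leiden resolution 2 (-0.12, where monocytes or neutrophils fall below 20 nuclei) and without monocytes or neutrophils, an alternative chosen after seeing the data (-0.12). Leaving out 1 mouse gave -0.083 to 0.103 for Arntl, -0.057 to 0.718 for Per1, -0.157 to 0.072 for Per2 and -0.004 to 0.203 for Cry2, and the block gave 0.07 for Per2. The genotype difference in the output share rose to 15.4 points in astrocytes without Nr1d2. With Arntl, Clock and Npas2 together it was 27.5 points in mural cells and -0.42 points in neurons. In border-associated macrophages it ran from -9.98 to 7.73 points when 1 mouse was left out. Values within single clusters, given for fibroblasts, astrocytes, neurons, oligodendrocytes and microglia, and the order of libraries without mural cells were also chosen after seeing the data.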

Other observations

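Clock genes were also counted in clusters that entered no comparison. A cluster of 189 nuclei led by Slit2, Sfta3-ps and Rmst, 146 of them from the R241E mice, held Per3 at 152 CPM, Cry2 at 145 CPM, Nr1d2 at 144 CPM and Arntl at 70.7 CPM. A cluster of 54 nuclei led by Rorb, Rtl4, 4930419G24Rik and Tshb, 53 of them from the R241E mice, held Clock at 268 CPM, Cry2 at 190 CPM and Nr1d2 at 177 CPM. Lymphocytes, pooled over mice, held 20 UMIs of Arntl in 156 nuclei of the R241E mice (52.1 CPM, exact Poisson interval 31.8 to 80.5) and 0 in 38 nuclei of the WT mice. A count of 0 there allows up to 40.0 CPM, within that interval, so a difference in Arntl was not detectable at this depth. Per1 went the other way, with 0 UMIs in lymphocytes of the R241E mice (exact Poisson upper limit 9.61 CPM). The WT mice held 4 UMIs of it (53.4 CPM, interval 14.5 to 137), all from WT mouse 3. Endothelial nuclei, 30 in each group, held Arntl at 94.2 CPM in the R241E mice and 141 CPM in the WT mice, on 7 and 9 UMIs, and Nr1d2 at 3 and 0 UMIs.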
